A study of Mus musculus with 8 samples.

Results

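The interleukin 1 (IL-1) family was followed across mouse embryonic fibroblasts grown in culture dishes and as tumours in nude mice, with and without the gene Keap1. The members were the ligands Il1a, Il1b, Il33 and Il18, the receptor chains Il1r1, Il1rap and Il1rl1, and the inhibitors Il1rn, Il1r2 and Il18bp. A probe was taken as a member's when the RefSeq accession that the array design gives it belongs to that gene, which found 10 genes of the 18217 with a symbol on the array. They are read by 19 of the 41174 probes. Testing required a signal well above background on the 2 arrays of 1 or more groups. This held for 17 of the 19 probes and for 9 of the 10 genes, Il1a being the exception.

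Gene expression was measured on 8 Agilent arrays of 1 colour (Cy3), 2 in each of 4 groups: WT-TR cells in dishes, Keap1–/–-TR cells in dishes, and tumours that each kind of cell formed after injection into nu/nu mice (allografts). The labels do not spell out the letters TR, which both genotypes carry. Per the labels, 10000000 WT or 3000000 Keap1 null cells were injected, the tumours were taken at 100 to 150 mm3, and 500 ng of total RNA was labelled. Each genotype is represented by 1 kind of cell, and the labels do not say whether it is a clone, so genotype and cell line cannot be told apart. The labels do not say whether the 2 arrays of a group come from separate cultures or animals, so every p-value here measures the spread between arrays, which may be technical. Nude mice lack most T cells but keep macrophages, neutrophils, mast cells, B cells and NK cells, and an allograft holds RNA of the injected cells and of the host.

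IL-1 family cytokines are alarm signals. IL-1α and IL-1β bind the receptor encoded by Il1r1, which recruits the accessory chain encoded by Il1rap and signals through MyD88, IRAK kinases and NF-kB. IL-33 is a nuclear protein of fibroblasts, endothelium and epithelium that is released when cells are damaged. It binds ST2, the product of Il1rl1, which is made as a membrane receptor on mast cells and some lymphocytes and as a secreted decoy that fibroblasts can make, and it needs the same accessory chain. IL-18 acts on NK and T cells through its own receptor pair. Il1rn encodes the receptor antagonist of IL-1, Il1r2 a decoy receptor, and Il18bp a secreted protein that captures IL-18. KEAP1 is the adaptor that sends the transcription factor NRF2 for degradation.

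The sequences just upstream of the starts of 3 members are shown because their values set the pattern of the report: Il1b was at background in dishes and bright in allografts, and Il33 and Il1rl1 were higher in Keap1 null allografts by the widest margins among the members. Each stretch holds the 250 bases before a RefSeq start on assembly GRCm38.p6, read 5′ to 3′ on the gene's strand. Capitals mark TATAAA in Il1b and Il33, and TGACNNNGC, the core of the element bound by NRF2, in Il1rl1.
Il1b, chr2:129371140-129371389, minus strand: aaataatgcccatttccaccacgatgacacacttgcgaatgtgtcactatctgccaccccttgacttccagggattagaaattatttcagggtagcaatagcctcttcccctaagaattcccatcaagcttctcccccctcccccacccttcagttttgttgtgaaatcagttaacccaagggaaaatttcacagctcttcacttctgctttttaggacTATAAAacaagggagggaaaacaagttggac
Il33 start 1, chr19:29924863-29925112, plus strand: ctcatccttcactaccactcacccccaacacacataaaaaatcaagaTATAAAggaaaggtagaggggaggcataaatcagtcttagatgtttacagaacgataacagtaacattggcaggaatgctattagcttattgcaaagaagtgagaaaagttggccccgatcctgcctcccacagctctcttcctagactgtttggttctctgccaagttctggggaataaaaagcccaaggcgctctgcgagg
Il33 start 2, chr19:29945540-29945789, plus strand: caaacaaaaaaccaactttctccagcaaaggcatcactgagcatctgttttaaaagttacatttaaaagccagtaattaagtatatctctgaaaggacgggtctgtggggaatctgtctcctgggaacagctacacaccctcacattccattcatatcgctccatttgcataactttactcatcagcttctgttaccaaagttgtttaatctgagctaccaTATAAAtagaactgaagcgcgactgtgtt
Il1rl1 start 1, chr1:40429320-40429569, plus strand: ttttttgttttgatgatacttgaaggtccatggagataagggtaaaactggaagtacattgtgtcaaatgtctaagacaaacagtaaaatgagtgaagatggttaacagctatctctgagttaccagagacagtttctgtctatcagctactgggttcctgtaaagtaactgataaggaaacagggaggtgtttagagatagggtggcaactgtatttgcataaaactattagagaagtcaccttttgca
Il1rl1 start 2, chr1:40439379-40439628, plus strand: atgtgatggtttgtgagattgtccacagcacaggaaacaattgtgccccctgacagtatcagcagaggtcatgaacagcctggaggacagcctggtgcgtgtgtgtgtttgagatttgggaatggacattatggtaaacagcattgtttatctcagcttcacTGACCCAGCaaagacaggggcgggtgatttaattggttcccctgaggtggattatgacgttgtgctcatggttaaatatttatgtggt

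TATAAA lay 31 to 26 bases before the start of Il1b and 29 to 24 bases before start 2 of Il33. In start 1 of Il33 it lay farther off, at 203 to 198 bases. Searched on both strands, TATAAA was found in 5 of the 15 member promoters, which cover all 10 genes, and in 12.4% of the 32851 promoters in the RefSeq table. TGACNNNGC was found in 1 of the 15, start 2 of Il1rl1, as TGACCCAGC at 88 to 80 bases before the start, and in 10.2% of all promoters. The NF-kB consensus was found once, in start 2 of Il1r1 (3.9% of all promoters), and TGANTCA, the AP-1 element, in Il1a and Il1rn (6.75%). GAGGAAGT, an ETS element of the PU.1 type, was found in 0 of the 15 (2.44% of all promoters). A match describes these letters only, and which start is used in these cells was not measured.

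All levels below are log2 intensity over its array's 75th percentile, so 0 is the level of a fairly bright probe, and levels are compared within a probe only. Dish arrays had 60.6% to 64.5% of probes well above background and allograft arrays 69.8% to 74.7%, the 75th percentile of intensity ran from 1084 to 1546 over all 8. On the log2 scale Keap1 itself read 3.32 and 2.99 (WT) against 2.37 and 2.22 (Keap1 null) from dishes, and 2.85 and 2.46 (WT) against 1.00 and 0.92 (Keap1 null) from tumours. It was lower by genotype in both settings (-0.86 in dishes, limma adjusted p = 0.0197; -1.69 in allografts, adjusted p = 0.000723). No source says whether its probe lies within the deletion, so it checks the labels only loosely. The fibroblast markers Col1a1, Col1a2, Col3a1 and others, 12 in all, summed to 352 to 385 times the 75th percentile in WT dishes and to 451 to 458 times in Keap1 null dishes, with Lum not well above background on either WT dish array and Fap on no dish array. Most of these sums was Vim and S100a4, not collagens. On the WT dish arrays log2 Vim was 7.71 and 7.64, and S100a4 7.11 and 6.88. In dishes 8 of the 12 were higher in Keap1 null and 1 lower, with a median of 1.93, where 11.4% of all targets were higher and 9.78% lower. The part of these markers in the genotype differences below was not tested.

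As among all targets, more of the 9 tested members were called for growth in the mouse than for genotype in dishes. In limma with Benjamini-Hochberg adjustment over 22922 targets, called below 0.05, 3 of 9 differed between Keap1 null and WT dishes, where 21.1% of all targets did: Il1r1 and Il1rl1 were higher (11.4% of targets were) and Il1rap was lower (9.78%). In allografts 7 of 9 differed by genotype (41.8% of all targets): Il1r1, Il1rl1 and Il33 were higher in Keap1 null tumours (20.5% of targets were) and Il1b, Il1rn, Il18 and Il18bp were lower (21.3%). From dish to allograft, 7 members rose and 1 fell in WT cells, where 68.0% of targets were called, 35.8% as rises and 32.2% as falls. All 9 tested members rose in Keap1 null cells, where 64.9% were called, 35.8% as rises and 29.1% as falls. Here and below, a rise or fall in WT or Keap1 null cells sets whole allografts, host RNA included, against cells in dishes. It does not show a change within the injected cells. The median change of the members was 3.51 and 2.77 on the log2 scale, against -0.02 and 0.03 for all targets. Il1b and Il1r2 passed the filter only through the allografts, so a rise was built into their testing, and both count in these figures. With probes well above background on all 8 arrays, which leaves these 2 out, 6 of 7 members were called in WT cells (69% of all targets). In Keap1 null cells 7 of 7 were called there (64.9%). These 2 growth comparisons have no array in common, nor have the 2 genotype comparisons, but all share the fit's estimate of spread. In the deposited values without scaling, 7 members were called for growth in WT cells, all of them rises, and 2 for genotype in dishes, both higher in Keap1 null.

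**Figure D1:**
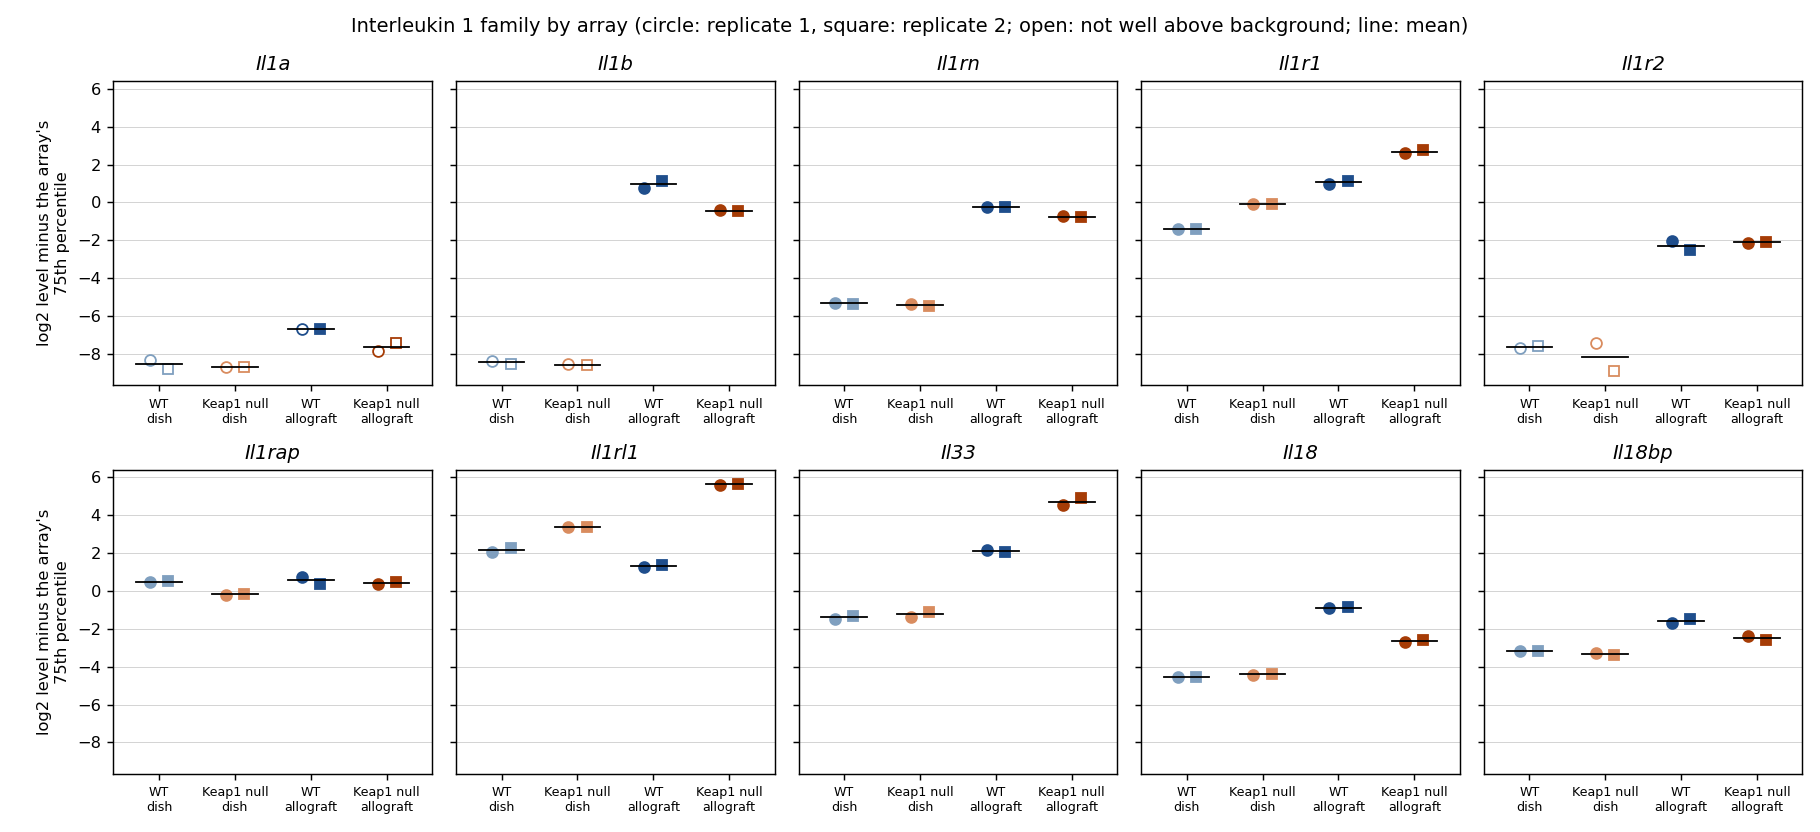
Log2 level of each member on each of the 8 arrays over its array's 75th percentile (vertical axis), by group (horizontal axis); a filled point was well above background and an open point was not. Il1rl1 and Il33 are highest in the Keap1 null allografts, Il1b is open on all 4 dish arrays, and Il18 is highest in the WT allografts.

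Il33 encodes the alarmin IL-33. Its log2 level was -1.46 and -1.33 on the WT dish arrays, -1.35 and -1.11 on the Keap1 null dish arrays, 2.18 and 2.05 on the WT allograft arrays and 4.53 and 4.92 on the Keap1 null allograft arrays. The dish groups overlapped, and the 4 allograft arrays lay above all dish arrays with the Keap1 null pair on top. In dishes the genotypes differed by 0.16 ± 0.16 (SE, 2 arrays against 2; 95% interval -0.24 to 0.56; limma adjusted p = 0.59). In allografts Il33 was 6.11-fold higher in Keap1 null than in WT (interval 4.62 to 8.09; adjusted p = 0.000114), by 2.35 on slide 1 and 2.87 on slide 2. It rose 11.4-fold from dish to allograft in WT cells (interval 8.6 to 15.1; adjusted p = 1.60e-05) and 62.2-fold in Keap1 null cells (47 to 82.4; adjusted p = 4.28e-06). The difference between those rises was 2.45 ± 0.23 on the log2 scale (interaction, limma adjusted p = 0.000846).

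Markers of mast cells, which bear membrane ST2, were higher in the same Keap1 null tumours. They summed to 3.34 to 3.53 times the 75th percentile in WT allografts and 12.6 to 18.6 times in Keap1 null allografts. In the latter 6 of the 7 tested were higher, where 20.5% of all targets were. Mcpt4, Hdc and Cpa3, a protease, the histamine-forming enzyme and a carboxypeptidase of mast cell granules, were 17.8-fold, 12.1-fold and 11.9-fold higher. In dishes Cpa3 and Mcpt4 were well above background on no array, and Tpsb2 on neither WT dish array, while the list summed to between 2.31 and 3.07 over all dish arrays. Most of the sums in dishes and in WT allografts was Gata2, which had log2 levels of 1.15 to 1.57 over all 8 arrays. The part of mast cells in the levels of Il33 and of Il1rl1 was not tested. In bulk tissue, fewer cells of a type and less RNA per cell cannot be told apart, which applies to every allograft value here.

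Il1b encodes IL-1β, made as a precursor mainly by macrophages and neutrophils. Its log2 level was -8.37 and -8.53 on the WT dish arrays, -8.53 and -8.61 on the Keap1 null dish arrays, 0.76 and 1.14 on the WT allograft arrays and -0.41 and -0.45 on the Keap1 null allograft arrays. It was well above background on no dish array, and the allograft groups did not overlap, with WT higher. The probe is spotted 10 times on the array, and its spots varied by an SD of 0.04 to 0.07 within an allograft array. Il1b was at least 195-fold higher in WT allografts than in WT dishes (limma adjusted p = 9.03e-07) and at least 77.9-fold higher in the Keap1 null pair (adjusted p = 2.37e-06). Such a bound sets the bright group against the lowest signal that counts as well above background on the dim arrays, and it holds for the processed signal only: with normexp background correction the rises were 36.2-fold and 15.4-fold (adjusted p = 3.98e-08 and 2.25e-07). Within allografts it was 2.6-fold lower in Keap1 null (interval 2.03 to 3.34; -1.38 ± 0.15; adjusted p = 0.000805), and the growth effect differed by -1.26 ± 0.21 between genotypes (adjusted p = 0.00617).

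Il1a, which encodes IL-1α, is read by 2 probes with low signals. The brighter gave -8.32 and -8.78 in WT dishes, -8.70 on both Keap1 null dish arrays, -6.70 on both WT allograft arrays, and -7.87 and -7.43 on the Keap1 null allograft arrays. Both probes were well above background on 1 of the 8 arrays, WT allograft 2, so Il1a entered no test and no fold is given. With the filter on dim probes removed, its genotype difference in allografts was -0.95 (limma adjusted p = 0.0208), between values at or near background.

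Il18 encodes IL-18, which is cleaved by caspase 1 as IL-1β is. Its log2 level was -4.52 and -4.55 on the WT dish arrays, -4.43 and -4.38 on the Keap1 null dish arrays, -0.91 and -0.83 on the WT allograft arrays and -2.71 and -2.58 on the Keap1 null allograft arrays. All 8 arrays were well above background, and the WT allografts were the highest by a wide margin. In dishes the difference was 0.13 ± 0.09 (interval -0.09 to 0.35; adjusted p = 0.397), below 0 with scaling by the median of each array or by quantiles. In allografts Il18 was 3.42-fold lower in Keap1 null (interval 2.93 to 4; limma adjusted p = 5.66e-05). It rose 12.7-fold from dish to allograft in WT cells and 3.39-fold in Keap1 null cells (adjusted p = 2.09e-06 and 2.64e-05), a difference of -1.91 ± 0.13 (adjusted p = 0.000291).

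Macrophage and monocyte markers moved with Il1b and Il18. The 13 tested markers summed to 102 to 115 times the 75th percentile in WT allografts and to 70.7 to 72.4 times in Keap1 null allografts. In the latter 12 of them were lower, with a median of -2.65, where 21.3% of all targets were lower and 20.5% higher. The exception was Ly6c2, which was 2.62-fold higher there and 2.68-fold higher in Keap1 null dishes (limma adjusted p = 0.000251 and 0.000549). Without it, a choice made after seeing the data, the other 12 summed to 80.6 to 92.5 in WT and 14.5 to 15.4 in Keap1 null allografts, and to 0.12 to 0.135 and 0.157 to 0.19 in the matching dishes. In dishes 8 of the 13, among them Adgre1, Itgam and Lyz2, were well above background on no array of either genotype, and the sums with Ly6c2 were 3.97 to 4.48 in WT and 10.5 to 11.8 in Keap1 null. Neutrophil markers went the other way in sum, at 3.22 to 3.85 in WT and 11.3 to 12.2 in Keap1 null allografts. Of 11 tested, 6 were higher (20.5% of all targets) and 2, Csf3r and Mmp8, lower (21.3%). Mmp9 made most of the Keap1 null sum, at log2 levels of 2.91 and 3.00 against 0.25 and 0.62 in WT allografts. It was also well above background on both Keap1 null dish arrays (-4.39 and -4.47) and on neither WT dish array. Markers of T, B and NK cells summed to 2.64 to 2.68 and to 0.459 to 0.613, with 8 of 13 lower in Keap1 null (21.3% of all targets). Cd3g, Cd8a, Klrb1c, Ms4a1 and Ncr1 passed the filter only through the WT allografts, as did Cx3cr1 among the macrophage markers. A lower level in Keap1 null was thus built into their testing. Camp, a neutrophil marker, passed only through the Keap1 null allografts, so a higher level there was built in. Markers of endothelium summed to 19.3 to 20.9 and 16.3 to 17.5. Several keratinocyte markers differed within the Keap1 null allograft pair. On arrays 1 and 2 log2 Krt5 was -0.71 and -4.70, Krt14 -1.17 and -4.10, and Lor 0.69 and -3.84, whereas Sfn was 3.36 and 3.14. Of 8 tested, 1 was higher in Keap1 null allografts (20.5% of all targets), and Dmkn passed the filter only through those arrays. The part of all these cell types in the ligand levels was not tested.

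Il1rl1, the receptor gene of IL-33, showed the largest genotype difference in allografts of the 9 tested members. The probe assigned to the transcript of soluble ST2 (A_51_P339793, NM_010743) gave log2 levels of 2.06 and 2.25 on the WT dish arrays, 3.39 and 3.40 on the Keap1 null dish arrays, 1.26 and 1.39 on the WT allograft arrays and 5.58 and 5.68 on the Keap1 null allograft arrays. The 4 groups did not overlap, and the WT allografts were the lowest. Il1rl1 was 2.36-fold higher in Keap1 null dishes (interval 1.97 to 2.83; limma adjusted p = 0.000812) and 19.7-fold higher in Keap1 null allografts (16.5 to 23.6; adjusted p = 8.67e-06), by 4.31 and 4.29 on the 2 slides. On moving from dish to allograft it fell 1.77-fold in WT cells (interval 1.48 to 2.12; adjusted p = 0.000796), a call that ended in the unscaled values (-0.44, adjusted p = 0.111), and rose 4.7-fold in Keap1 null cells (adjusted p = 1.95e-05). By the brightest probe of each gene, it was the only tested member whose called growth effects had opposite signs, with a difference of 3.06 ± 0.15 (adjusted p = 0.000124).

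Both other Il1rl1 probes gave the same order of groups. The probe assigned to the membrane receptor transcript (A_52_P484194, NM_001025602) gave 1.34 and 1.30 in WT dishes, 2.02 on both Keap1 null dish arrays, -0.14 and -0.27 on the WT allograft arrays, and 3.69 and 3.92 on the Keap1 null ones. By genotype it was 1.62-fold higher in dishes and 16.1-fold higher in allografts (limma adjusted p = 0.0079 and 1.01e-05), and its growth effects differed by 3.31. A second probe of NM_010743 (A_52_P19955) ran from -4.50 in WT allografts to -0.16 in Keap1 null allografts and was 19.2-fold higher by genotype in allografts (adjusted p = 7.19e-06). Assignment to a transcript is that of the array design. Whether a probe can tell the transcripts apart is not recorded, and levels of different probes are not compared.

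**Figure D2:**
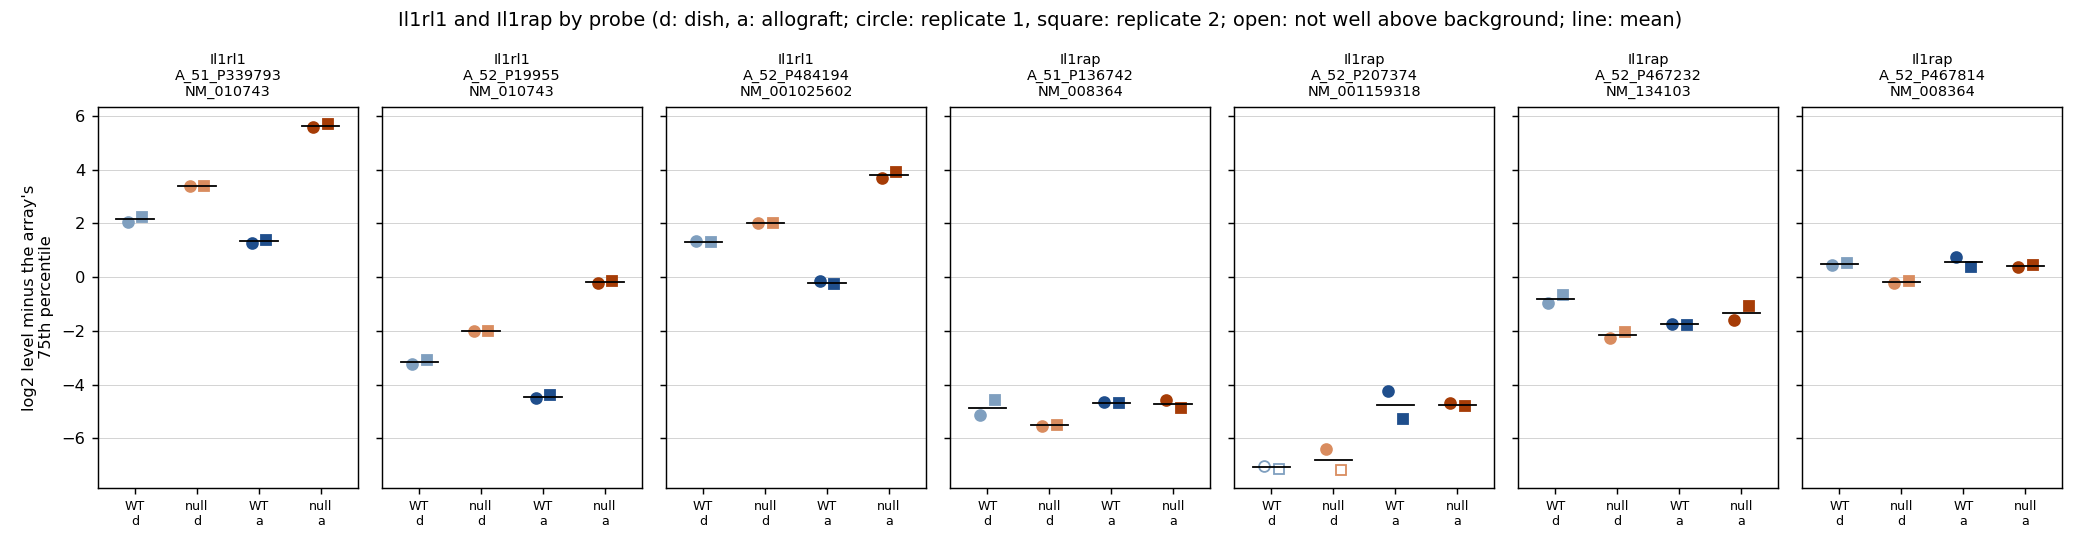
Log2 level on each array (vertical axis, relative to the 75th percentile) for each probe of the receptor genes Il1rl1 and Il1rap, by group (horizontal axis). The 3 Il1rl1 probes share one order, lowest in WT allografts and highest in Keap1 null allografts, whereas the Il1rap probes differ from each other in order.

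Il1r1 encodes the signalling receptor of IL-1. Its log2 level was -1.40 and -1.41 on the WT dish arrays, -0.08 and -0.10 on the Keap1 null dish arrays, 0.98 and 1.14 on the WT allograft arrays and 2.60 and 2.76 on the Keap1 null allograft arrays. The 4 groups were separate, and Keap1 null lay above WT in both settings. It was 2.48-fold higher in Keap1 null dishes (interval 2.09 to 2.95; limma adjusted p = 0.000533) and 3.08-fold higher in Keap1 null allografts (2.59 to 3.65; adjusted p = 0.000108). From dish to allograft it rose 5.51-fold in WT and 6.83-fold in Keap1 null cells (adjusted p = 9.67e-06 and 8.68e-06). The difference between these rises was 0.31 ± 0.14 (interval -0.04 to 0.66; adjusted p = 0.155), near 0 and negative in the unscaled values.

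Il1rap encodes the accessory chain shared by the receptors of IL-1 and IL-33. The brightest of its 4 probes (A_52_P467814) gave log2 levels of 0.46 and 0.52 on the WT dish arrays, -0.20 and -0.14 on the Keap1 null dish arrays, 0.74 and 0.38 on the WT allograft arrays and 0.36 and 0.47 on the Keap1 null allograft arrays. Only the Keap1 null dishes lay apart, and WT allograft 1 was the highest array. It was 1.58-fold lower in Keap1 null dishes (-0.66 ± 0.14; limma adjusted p = 0.0217), but that call ended without Keap1 null dish 1 (adjusted p = 0.118), Keap1 null dish 2 (0.0961), WT dish 1 (0.0802) or WT dish 2 (0.0931), and in the unscaled values (0.174). In allografts the difference was -0.14 ± 0.14 (interval -0.48 to 0.19; adjusted p = 0.459), and its sign turned without WT allograft 1 (0.04). Its rise in Keap1 null cells was 1.5-fold (adjusted p = 0.0108; 0.0583 without Keap1 null dish 1 and 0.0521 without Keap1 null allograft 2), and turned to -0.28 when arrays were scaled by their median.

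The Il1rap probe assigned to NM_134103 (A_52_P467232), a shorter transcript, had levels of -0.95 and -0.68 on the WT dish arrays, -2.25 and -2.05 on the Keap1 null dish arrays, -1.76 and -1.77 on the WT allograft arrays and -1.58 and -1.09 on the Keap1 null allograft arrays. Here the WT dishes were highest and the Keap1 null dishes lowest. It was 2.52-fold lower in Keap1 null dishes (limma adjusted p = 0.00524), fell 1.93-fold from dish to allograft in WT cells (adjusted p = 0.00504) and rose by 0.82 in Keap1 null cells (adjusted p = 0.0101), a difference of 1.77 (adjusted p = 0.00451). For the brightest probe the same interaction was 0.52 ± 0.19 (adjusted p = 0.0955; 0.0301 without WT allograft 1). The probe of NM_001159318 was well above background on 5 of the 8 arrays and differed by 0.27 in dishes (adjusted p = 0.702).

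Il1rn encodes the IL-1 receptor antagonist. Its brighter probe (A_52_P431159) gave log2 levels of -5.29 and -5.37 on the WT dish arrays, -5.38 and -5.45 on the Keap1 null dish arrays, -0.25 and -0.23 on the WT allograft arrays and -0.74 and -0.78 on the Keap1 null allograft arrays. Allograft arrays lay far above dish arrays, with WT above Keap1 null. It rose 34.2-fold in WT and 25.2-fold in Keap1 null cells (limma adjusted p = 9.11e-07 and 2.37e-06) and was 1.44-fold lower in Keap1 null allografts (interval 1.24 to 1.66; adjusted p = 0.00432). The difference in growth effect was -0.44 ± 0.12 (adjusted p = 0.037), and this call ended on leaving out any 1 of the 8 arrays (0.0629 to 0.141). A second, dimmer probe, A_51_P307166, gave -7.67 and -5.23 in WT dishes, so WT dish 2 stood apart from its pair. That probe was well above background on 5 arrays. By it the growth call in WT ended (1.63 ± 0.72; adjusted p = 0.0884), the rise in Keap1 null cells was at least 2.78-fold (adjusted p = 0.0171), and the genotype difference in allografts was -0.42 (adjusted p = 0.684). With normexp the brighter probe rose by 3.32 and 2.99 on the log2 scale in WT and Keap1 null cells.

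Il1r2, the decoy receptor, was well above background on no dish array. Its brighter probe gave -7.72 and -7.61 on the WT dish arrays, -7.43 and -8.92 on the Keap1 null dish arrays, -2.04 and -2.51 on the WT allograft arrays and -2.15 and -2.09 on the Keap1 null allograft arrays. The allograft groups overlapped, with a genotype difference of 0.15 ± 0.47 (limma adjusted p = 0.827; -0.11 on slide 1 and 0.42 on slide 2), which does not show that the genotypes are alike. It was at least 20.9-fold higher in WT and at least 24.1-fold higher in Keap1 null allografts than in the matching dishes (adjusted p = 0.000163 and 0.000112), and the second probe gave at least 4.88-fold and 4.81-fold. With normexp the rises by the brighter probe were 4.87-fold and 5.59-fold (adjusted p = 5.45e-06 and 3.62e-06). Keap1 null dish 1 and 2 lay apart, and without array 1 both the dish difference (-1.26, adjusted p = 0.0302) and the interaction (1.41, adjusted p = 0.0257) passed the threshold, each on dish values below background.

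Il18bp encodes the soluble trap of IL-18. The brighter of 2 probes gave -3.17 and -3.16 on the WT dish arrays, -3.27 and -3.40 on the Keap1 null dish arrays, -1.71 and -1.49 on the WT allograft arrays and -2.36 and -2.56 on the Keap1 null allograft arrays. The WT allografts were highest and the Keap1 null allografts next, as for Il18, and in dishes the Keap1 null pair was lowest (-0.17 ± 0.12; adjusted p = 0.413). In allografts it was 1.81-fold lower in Keap1 null (interval 1.47 to 2.23; limma adjusted p = 0.0026), and -0.90 by the second probe (adjusted p = 0.00345). It rose 2.96-fold in WT cells (adjusted p = 0.000107) and 1.84-fold in Keap1 null cells (adjusted p = 0.00123), the latter ending with scaling by the median (0.01, adjusted p = 0.956) or by quantiles (adjusted p = 0.212). The difference in growth effect was -0.69 ± 0.17 (adjusted p = 0.0278). It missed the threshold without either WT dish array (0.0727 and 0.0719), either Keap1 null dish array (0.0996 and 0.064), WT allograft 2 (0.0797) or Keap1 null allograft 2 (0.0678).

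**Figure D3:**
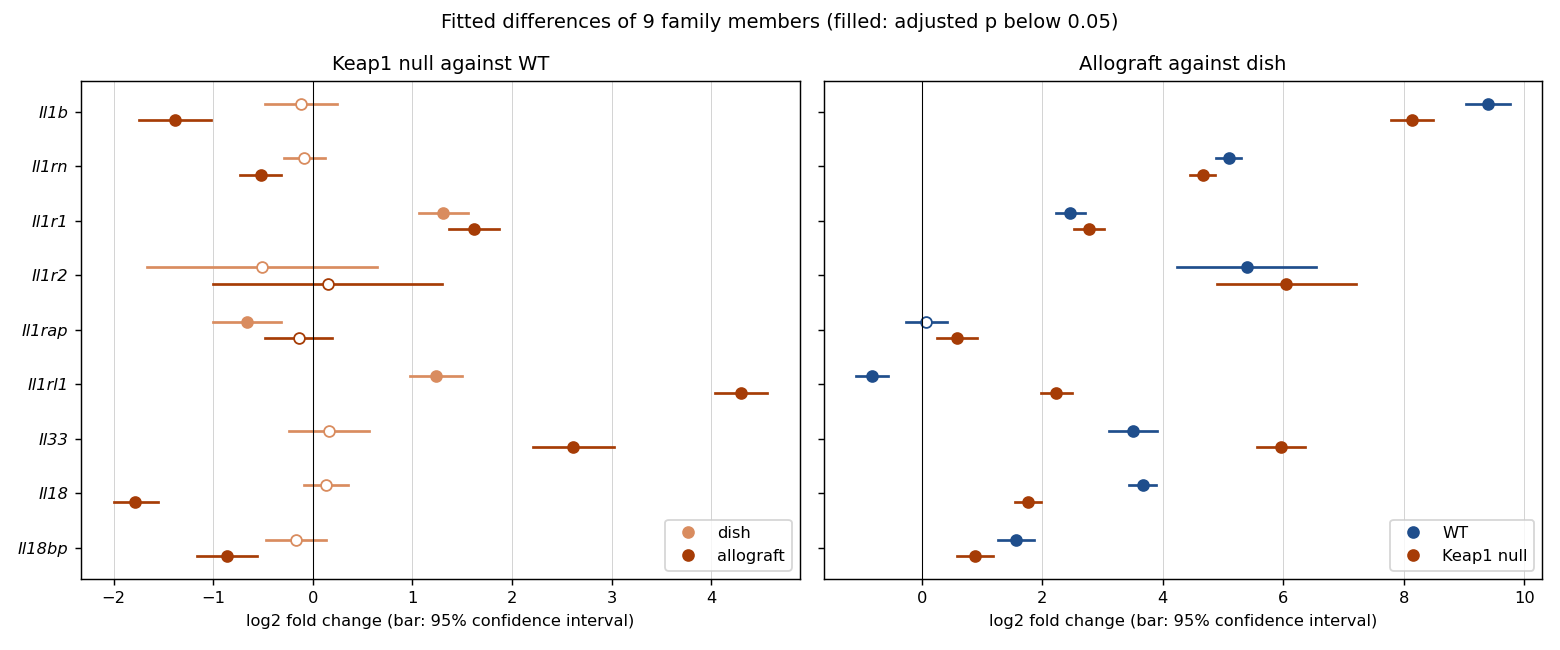
Log2 difference of each tested member with its 95% interval (horizontal axis) in the comparisons of genotype and growth, from the limma fit over 8 arrays. In allografts Il1rl1 (4.30), Il33 (2.61) and Il1r1 (1.62) lie above 0 and Il18 (-1.78), Il1b (-1.38), Il18bp (-0.86) and Il1rn (-0.52) below it.

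The interaction of genotype and growth was called for 6 of the 9 tested members, where 32.8% of all targets were. It was above 0 for Il1rl1 and Il33 (15.8% of targets) and below 0 for Il1b, Il1rn, Il18 and Il18bp (17.0%). With scaling by the median of each array, by quantiles or with none, 4 of 9 were called, 2 in each direction. Counts ran from 4 to 6 over the alternatives.

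The receptor genes sit side by side on mouse chromosome 1 in the RefSeq order Il1r2, Il1r1, Il1rl2, Il1rl1, Il18r1 and Il18rap, with no other protein-coding gene between them in GRCm38.p6. Il1rl2, a receptor of IL-36 cytokines, was on the array but not tested because it was too dim. Il18rap, the accessory chain of the IL-18 receptor, gave log2 levels of -2.88 and -3.03 on the WT dish arrays, -1.23 and -1.40 on the Keap1 null dish arrays, -3.06 and -3.65 on the WT allograft arrays and -0.68 and -0.85 on the Keap1 null allograft arrays. Keap1 null arrays lay above WT arrays in both settings, 3.13-fold in dishes and 6-fold in allografts (limma adjusted p = 0.00348 and 0.000263). Thus Il1r1, Il1rl1 and Il18rap were higher on the Keap1 null arrays in both settings, where those of allografts include host RNA. Il18r1, which lies between the last 2, was not well above background in dishes and was 1.95-fold lower in Keap1 null allografts (adjusted p = 0.021; 0.0909 without Keap1 null allograft 2, 0.102 without WT allograft 2 and 0.206 with normexp background correction). Il1r2, at the other end, did not pass the test for genotype.

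**Figure D4:**
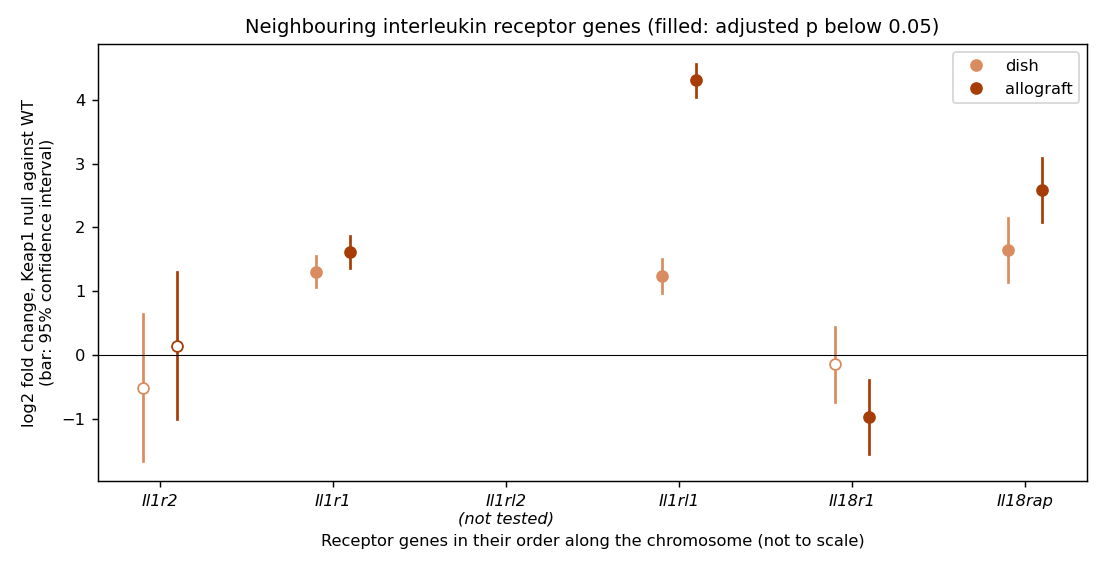
Log2 difference of Keap1 null from WT (vertical axis) for the receptor genes in their order on chromosome 1 (horizontal axis, not to genomic scale), in dishes and in allografts, with 95% intervals. Il1r1, Il1rl1 and Il18rap lie above 0 in both settings; Il18r1 lies below 0 in allografts and Il1rl2 was not tested.

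Of the other superfamily genes, 11 were listed and 3 tested, the third being Sigirr, an inhibitory receptor. Sigirr was 2.14-fold lower in Keap1 null allografts (limma adjusted p = 0.00157) and rose 3.25-fold from dish to allograft in WT cells (adjusted p = 0.000124). The growth effect differed by -1.15 (adjusted p = 0.00705). Il1f6, Il1f9, Il1f5, Il1f10, Il1rapl1 and Il1rapl2, on the array too, passed the filter on dim probes in no group.

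Genes that process and release IL-1β and IL-18 were mostly lower in the tumours where those ligands were lower. Of 15 tested, 9 were lower and 1 higher in Keap1 null allografts, where 21.3% of all targets were lower and 20.5% higher. The median was -0.61 against 0.00 for all targets. Txnip, a binding partner of NLRP3, was 5.66-fold lower, the ATP receptor P2rx7 was 4.07-fold lower, the inflammasome sensor Nlrc4 3.66-fold and Casp1, the converting enzyme, 3.23-fold lower (limma adjusted p = 2.48e-05, 0.000283, 0.000164 and 0.0053). In dishes 2 of the 15 were called, both lower, where 21.1% of all targets were called. These were Gsdme, a pore-forming gasdermin (-0.58, adjusted p = 0.00732), and Txnip (-0.49, adjusted p = 0.0177). The Gsdme call ended without Keap1 null dish 1 (0.0592) or 2 (0.0593), and that of Txnip without Keap1 null dish 1 (0.0863) or 2 (0.116) or WT dish 1 (0.0816) or 2 (0.068). From dish to allograft 8 rose and 3 fell in WT cells, Casp1 by 141-fold, Mefv by 62-fold and Casp4 by 39-fold, and 9 rose and 3 fell in Keap1 null cells, where Casp1 rose 42.9-fold. With scaling by the median of each array these splits were 8 and 6, and 6 and 5. In the main scaling 68.0% of all targets were called in WT and 64.9% in Keap1 null cells, 35.8% as rises in each. Nlrc4 passed the filter only through the allografts, so a rise was built into its testing. Log2 Casp1 was -6.04 and -6.69 on the WT dish arrays, close to the lowest levels counted as well above background there (-6.42 and -6.90). Its folds of growth thus rest on dish levels near the floor. The macrophage marker sums given above were lower in the same Keap1 null allografts, and their part was not tested.

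Of 19 tested genes of receptor signalling, 3 were higher and 1 lower in Keap1 null dishes (median -0.06; 21.1% of all targets called), and 5 were higher and 6 lower in Keap1 null allografts (median -0.15; 41.8%). Irak3, which blocks IRAK signalling, was 2.32-fold higher in Keap1 null dishes, and Peli2, a ubiquitin ligase of the pathway, was 3.53-fold higher (limma adjusted p = 0.000702 and 0.000451). In allografts Irak4, the first kinase of the chain, was 1.8-fold lower (adjusted p = 0.00111). Irak3 rose 9.01-fold and Peli2 3.66-fold from dish to allograft in WT cells, and Map3k7, the kinase TAK1, fell (-1.06). In that comparison 5 of the 19 rose and 6 fell, where 35.8% of all targets rose and 32.2% fell. That split depended on scaling: 2 rose and 16 fell with the median of each array, which moved the median of all targets to -1.04, and 5 were called in the unscaled values, all of them rises.

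Genes known to be induced by IL-1 in fibroblasts differed in both directions between Keap1 null and WT dishes. Of 24 tested, 8 were higher and 2 lower in Keap1 null dishes, where 11.4% of all targets were higher and 9.78% lower. Their median was 0.29 against -0.05 for all targets. With normexp background correction 7 were called, all higher. Mmp3, a matrix protease, was 47.5-fold higher, Vcam1, an adhesion molecule, 4.22-fold and Ccl2, a monocyte chemokine, 3.74-fold (limma adjusted p = 2.28e-05, 0.00161 and 0.000401). Il6 and Csf2 were lower. Log2 Il6 was -5.11 and -4.95 on the WT dish arrays and -6.18 and -6.21 on the Keap1 null dish arrays. Log2 Csf2 was -4.28 and -4.66 against -5.65 and -5.55, and its call ended with normexp (limma adjusted p = 0.0598). In dishes neither IL-1 ligand gene was well above background, while Il1r1 was higher in Keap1 null and Il1rap, by its brightest probe, lower. The part of these members in the levels of the listed genes was not tested. In allografts 12 were higher and 6 lower (9 and 7 unscaled), where 20.5% of all targets were higher and 21.3% lower. Log2 Ptgs2, which encodes cyclooxygenase 2, was 1.44 and 1.86 on the WT dish arrays, 2.13 and 2.23 on the Keap1 null dish arrays, -1.30 and -1.15 on the WT allograft arrays and 5.12 and 5.25 on the Keap1 null allograft arrays. It was higher in Keap1 null allografts by 85.2-fold (adjusted p = 8.67e-06), so its groups stood in the same order as those of Il1rl1, low in WT and high in Keap1 null tumours.

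Il6, a cytokine gene that was lower in Keap1 null dishes, and Ptges, the prostaglandin E synthase, were higher in Keap1 null allografts by 12.3-fold and 7.35-fold (limma adjusted p = 1.38e-05 and 3.78e-05). Il1b and Il1rn were lower in those same tumours, whereas Il1r1 was higher. Ccl2 and Vcam1, higher in Keap1 null dishes, fell below WT in the allografts, by 2.92-fold and 1.78-fold (adjusted p = 0.000373 and 0.0236); the Vcam1 call ended without Keap1 null allograft 1 (0.0612) or WT allograft 2 (0.114). Mmp13 and Icam1 were lower in Keap1 null allografts too. Log2 Mmp13 was -2.04 and -2.06 there against -0.04 and 1.10 in WT allografts, and Icam1 -4.43 and -3.97 against -1.84 and -1.81. From dish to allograft 18 of the 24 rose and 3 fell in WT cells (15 and 6 with the median of each array), and 20 rose and 3 fell in Keap1 null cells. Of all targets 35.8% rose in each of these comparisons, while 32.2% fell in WT and 29.1% in Keap1 null cells. Cxcl2, Cxcl3, Cxcl5, Icam1, Saa3 and Steap4 passed the filter only through the allografts, so a rise was built into their testing. Lcn2 passed only through the Keap1 null allografts, so a rise there and a higher level than in WT allografts were built in.

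Genes of cells that respond to IL-18 and IL-33 gave no common direction. Of 11 tested, 4 were higher and 5 lower in Keap1 null allografts, where 20.5% of all targets were higher and 21.3% lower. Areg, a growth factor of such cells and of epithelium, was 6.87-fold higher (limma adjusted p = 0.000222). Arg1, a gene of macrophages of the alternative type, was 8.26-fold lower (adjusted p = 7.74e-05). Retnla, another such gene, was lower too (adjusted p = 0.00586), with arrays far apart in each pair: -1.26 and -3.34 in WT, and -7.86 and -6.07 in Keap1 null, where 1 of 2 was well above background. Its fold was 25.3 over all arrays, 12.3 without WT allograft 1, 52 without WT allograft 2, 13.6 without Keap1 null allograft 1 and 47.1 without Keap1 null allograft 2. In dishes 2 were called, where 21.1% of all targets were. Both were higher, Rora by 2.89-fold and Gata3 by 2.55-fold (limma adjusted p = 0.00173 and 0.000616). Rora was well above background on 1 of the 2 WT dish arrays and its call ended with normexp (0.125). In growth 7 rose and 1 fell in WT cells and 5 rose and 1 fell in Keap1 null cells (7 and 4, and 4 and 3, with the median of each array). Of all targets 68.0% and 64.9% were called there. Ifng passed the filter only through the allografts, Ccl1 and Retnla only through those of WT, and Il4 only through those of Keap1 null. A rise was built into the testing of these genes, and for Ccl1, Retnla and Il4 so was a genotype difference in allografts. Il5, Il9 and Foxp3, also listed, were too dim to be tested.

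**Figure D5:**
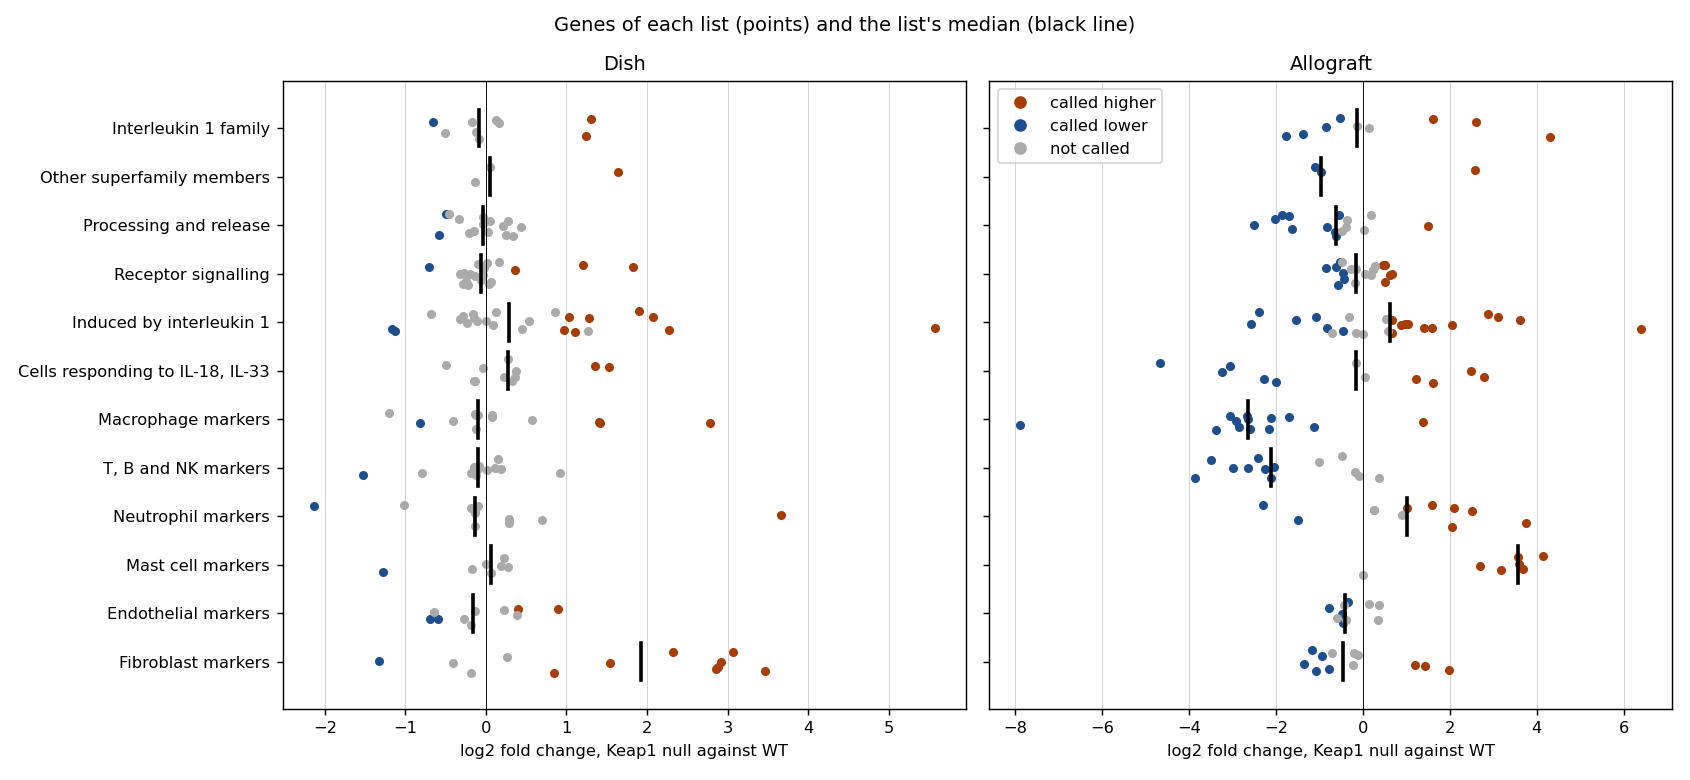
Log2 difference of Keap1 null from WT (horizontal axis) for each tested gene of the pathway and marker lists (points, coloured where called), in dishes and in allografts, with a black line at the list's median. Keratinocyte markers are left out. The processing genes lie mostly below 0 in allografts (median -0.61), and the IL-1-induced genes spread from Mmp13 (-2.58) to Ptgs2 (6.41).

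Each member also has genes whose pattern over the 8 arrays was most like its own, by Pearson r of log2 values. With groups this far apart, many targets reach a high r, so the names are a description. Il1b was nearest to Ifi202b (0.9998), Ddx3y (0.9997) and Eif2s3y (0.9996). The last 2 are genes of the Y chromosome. Log2 Ddx3y lay between -8.99 and -8.64 in dishes, not well above background on any of the 4 arrays, at -1.10 and -0.95 on the WT allograft arrays and at -2.26 and -2.05 on the Keap1 null ones, 2.19-fold lower in the latter (limma adjusted p = 0.00186). Eif2s3y showed the same order, well above background on 0 of 4 dish arrays and on 4 of 4 allograft arrays, and was 2.04-fold lower (adjusted p = 0.0114).

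Il1rn was nearest to Pirb and Pstpip1 (both 0.9998) and Ms4a6d (0.9995). Pirb, a receptor of myeloid cells, was 2.54-fold lower in Keap1 null allografts and not well above background in dishes. For Il1r1 the nearest were Ly6a (0.9993), Ugt1a6b (0.9988) and Tnc (0.9976), all well above background in dishes. Il1rl1 was nearest to Tpbg (0.9980), Adh7 (0.9978) and Flvcr2 (0.9973), and log2 Adh7, an alcohol dehydrogenase, was 0.85 and 1.01 in Keap1 null tumours against -6.94 and -6.51 in WT tumours (limma adjusted p = 1.17e-05). It was well above background on 3 of those 4 arrays, so no fold is given. Il33 was nearest to Efs (0.9986), Nfkbiz (0.9979) and Spaca6 (0.9978). Il18 was nearest to Cilp (0.9987), Psmb9 (0.9986) and Hc (0.9984), and Il18bp to Icosl (0.9980). Il1rap had no match above 0.9745 (Mcm9), and Il1r2 was nearest to Ankrd61 (0.9974).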

How the data were processed

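The members and gene lists were chosen with earlier results of these data known. The deposited scanner files hold intensities from Agilent Feature Extraction 10.7.3.1, with background and a spatial trend subtracted but arrays not scaled to each other, per the file headers. The series' value table, as deposited, repeats those intensities within 0.496%. Here log2 of the processed signal minus each array's 75th percentile was taken in R 4.3.3, repeated spots were averaged, and no member spot was an outlier. Accessions were looked up in RefSeq's gene table of GRCm38.p6, for names and gene order only, since the headers name mm9. A gene was represented by its brightest tested probe on average. One fit of 4 group means over 8 arrays (limma 3.58.1, 4 residual and 1.83 prior degrees of freedom) gave 5 comparisons, called below a Benjamini-Hochberg adjusted p of 0.05. For single genes the smallest exact permutation p of 2 against 2 is 0.333. Alternatives were other scalings, background correction, filter, probes, samples and a slide block. Replicate numbers matched slides in the file headers, and same-numbered arrays deviated together (correlations 0.22 to 0.43 over 6 pairs of groups), so the numbers pair arrays by slide. The script was tested on simulated data. Named genes were the members, the 4 most changed called genes of a list per comparison, and each member's 3 most alike targets. The number of arrays limits the precision.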

Additional observations from a re-analysis of the deposited data

Results flagged for a closer look

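The effect of growth in the mouse differed between Keap1 null and WT cells, by the interaction term of the limma fit, for 6 members. The difference of the log2 effects was 3.06 for Il1rl1 (adjusted p = 0.000124), 2.45 for Il33 (adjusted p = 0.000846), -1.91 for Il18 (adjusted p = 0.000291), -1.26 for Il1b (adjusted p = 0.00617), -0.69 for Il18bp (adjusted p = 0.0278) and -0.44 for Il1rn (adjusted p = 0.037). A positive value means a larger rise from Keap1 null dishes to Keap1 null allografts, which include host RNA. The first 4 stayed called in every alternative run. The other two did not: Il18bp missed the threshold in 10 of its 17 alternatives and Il1rn in 15 of 17, in 2 of which its sign turned.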

How the results depend on the processing

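Of 750 values of the 9 members under other settings, 686 kept sign and side of the threshold, another 16 turned sign without being called on either side, and 25 of 33 calls held in every setting run, among them all called values of Il1r1, Il33, Il18 and Il1b. Where the same 9 members were tested, counts called ranged from 2 to 3 (genotype in dishes), 6 to 7 (genotype in allografts), 7 to 9 in both growth comparisons and 4 to 6 (interaction). Without the filter Il1a made 10 tested, with 3, 8, 9, 10 and 4 called, and with probes above background on all 8 arrays 7 were tested, with 3, 6, 6, 7 and 5 called. Signs turned with a call for Il1rap in dishes by its probe of NM_001159318 (0.27), for growth in WT with the median of each array (-0.95, adjusted p = 0.00109) and by its probe of NM_134103 (-0.95), and for growth in Keap1 null with the median (-0.28). The interaction of Il1rn turned with the mean of its probes (0.32) and by its second probe (1.09). The cause was not tested. Scaling by the median moved the median of all targets to -0.21 and -0.00 by genotype and -1.04 and -0.84 by growth, so growth effects there are best read against those shifts. With normexp, run on the median signals, the growth effect of Il1b was 5.18 in WT and 3.95 in Keap1 null, still called. With the replicate block, which is also the slide block, 3, 7, 8, 9 and 6 members were called in the order above, and no member call changed. Low signal limits Il1a everywhere and Il1b and Il1r2 in dishes.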
